A study of Rattus norvegicus with 22 samples.

Results

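The genes described here are 10 genes of cholinergic transmission measured by RNA-seq in the nucleus accumbens (NAc) of rats, out of 17310 genes listed in the count files. They are the muscarinic acetylcholine receptors Chrm1, Chrm2, Chrm3, Chrm4 and Chrm5, the nicotinic receptor subunits Chrna4, Chrna7 and Chrnb2, the acetylcholine-synthesising enzyme Chat and the acetylcholine-degrading enzyme Ache. They were taken by exact gene symbol, and all 10 were found. The set was chosen by its members' roles and by the lower Chrm4 counts of the EtOH-drinking rats in experiment 1, so the differences between the groups of experiment 1 are given below as a description. Relations between genes within the groups did not use that contrast. Experiment 2 used other rats and was tested.

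The tissue came from 22 adult male outbred Wistar rats, and each library was made from 1 rat. In experiment 1, 5 rats drank only water and 5 rats had continuous access to 6% EtOH beside water for 8 weeks. In experiment 2, all 12 rats had 6% EtOH and water to choose from for 4 weeks, then 3 weeks of gavage and 2 further weeks of access. The gavage was 2.5 g/kg EtOH at 30% v/v, given 2 times daily, in 6 rats, and water in the other 6. Both groups of experiment 2 therefore drank EtOH, and no group of that experiment had water alone. Core and shell of the NAc were taken, so the samples are mixtures of cell types, and in such tissue fewer cells of a type and less RNA per cell cannot be told apart.

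Acetylcholine in the striatum, of which the NAc is the ventral end, is released mainly by a sparse population of large local interneurons. Chat makes it, the transporter encoded by Slc18a3 loads it into vesicles, Ache splits it in the synaptic cleft, and the transporter encoded by Slc5a7 brings the choline back. Chrm1, Chrm3 and Chrm5 couple to Gq proteins and phospholipase C, whereas Chrm2 and Chrm4 couple to Gi proteins and lower cyclic AMP. In the striatum Chrm4 is best known from the projection neurons that carry the dopamine D1 receptor, while Chrm2 is known as an autoreceptor of the cholinergic interneurons. The nicotinic receptors are ion channels, of which the pairing of Chrna4 with Chrnb2 and the homomeric Chrna7 receptor are the common forms in brain.

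The promoters of 4 of these genes are shown because Chrm4, Chat and Ache were lower together in the EtOH rats of experiment 1 and Chrna4 varied most between rats. Each is the RefSeq stretch of 300 bases on build GRCr8, from 250 before to 50 after the annotated start, read 5′ to 3′ on the strand of the gene. Capitals mark the GC box GGGCGG on either strand, overlapping matches included. The Chrm4 stretch lies at chr3:98348830-98349129 on the + strand, that of Ache at chr12:25050361-25050660 on the - strand, that of Chat at chr16:7723367-7723666 on the - strand and that of Chrna4 at chr3:188534477-188534776 on the - strand.
Chrm4: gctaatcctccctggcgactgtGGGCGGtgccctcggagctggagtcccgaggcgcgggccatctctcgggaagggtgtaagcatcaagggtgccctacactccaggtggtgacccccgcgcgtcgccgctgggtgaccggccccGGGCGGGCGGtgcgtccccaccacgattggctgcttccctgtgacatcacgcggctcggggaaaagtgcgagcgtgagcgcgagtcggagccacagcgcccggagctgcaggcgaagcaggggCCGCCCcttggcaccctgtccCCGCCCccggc
Ache: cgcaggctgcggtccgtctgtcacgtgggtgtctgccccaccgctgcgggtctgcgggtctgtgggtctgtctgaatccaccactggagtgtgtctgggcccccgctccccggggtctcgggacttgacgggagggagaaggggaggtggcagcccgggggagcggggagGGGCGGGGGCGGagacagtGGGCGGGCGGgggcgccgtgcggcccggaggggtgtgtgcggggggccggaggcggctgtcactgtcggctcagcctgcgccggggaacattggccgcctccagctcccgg
Chat: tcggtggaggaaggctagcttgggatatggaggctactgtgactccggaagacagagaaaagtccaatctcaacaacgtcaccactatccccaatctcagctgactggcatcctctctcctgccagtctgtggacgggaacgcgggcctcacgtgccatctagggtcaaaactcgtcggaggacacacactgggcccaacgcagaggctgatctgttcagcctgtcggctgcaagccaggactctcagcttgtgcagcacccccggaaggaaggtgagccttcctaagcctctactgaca
Chrna4: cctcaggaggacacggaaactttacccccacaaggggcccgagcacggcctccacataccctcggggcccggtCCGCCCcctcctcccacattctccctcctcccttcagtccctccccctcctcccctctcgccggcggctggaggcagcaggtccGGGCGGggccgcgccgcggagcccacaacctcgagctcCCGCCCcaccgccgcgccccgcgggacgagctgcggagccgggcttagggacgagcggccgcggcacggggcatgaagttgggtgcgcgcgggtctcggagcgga
The GC box occurred 5 times in the Chrm4 stretch, 4 times in that of Ache and 3 times in that of Chrna4, and did not occur in that of Chat. Of the 9 members with an entry, 7 held at least 1 GC box, against 33.1% of all 33469 promoters. The GC content was 72.0% for Chrm4, 75.0% for Ache, 74.7% for Chrna4 and 57.3% for Chat, where the median promoter had 51.7%. The E-box CACGTG, on either strand, was found in the Chat, Ache and Chrna7 stretches and in 6.42% of all promoters. The cyclic AMP response element TGACGTCA, on either strand, was found in none of the 9 and in 1.83% of all promoters. Neither TTCAGCACC nor GGACAGC, the parts of the RE1 element bound by the neuronal repressor REST, was found on either strand in the 9 stretches, against 0.356% and 6.59% of all promoters. These matches describe the letters in the windows and are not evidence of binding.

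Libraries of experiment 1 had 2962291 to 5247386 reads on genes and those of experiment 2 had 6713617 to 8765472. In experiment 2 a single axis carried 74.0% of the variance between libraries and followed the share of reads outside annotated genes. Between the 2, r was -0.975 over the 12 libraries, given as a description. The sign of this r was set by the orientation given to the axis, and only its size was observed. The share is out of the uniquely aligned reads outside and on genes. That share ran from 46.1% to 58.0%, and 4 libraries (water gavage rats 1 and 5, EtOH gavage rats 1 and 2) were above 52%. In experiment 1 the share ran from 48.4% to 51.1%. The summed counts of 6 projection neuron markers were high in every library, from 8089 to 15098 in experiment 1 and from 21813 to 48330 in experiment 2. The summed counts of 6 cortical excitatory neuron markers, genes of the neighbouring cortex, varied far more, from 434 to 2771 in experiment 1 and from 130 to 4096 in experiment 2. Tbr1 and Neurod2 of that list were at 0 in some libraries of experiment 2. All values below are normalized counts, that is read counts scaled to the mean library size of the experiment, and are compared between rats and not between genes, since no transcript lengths were used.

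A gene was fitted if its mean count was above the median of all listed genes, which kept 8655 genes in each experiment. Chrm2, Chrm5 and Chrna7 fell below that filter in experiment 1, leaving 7 members, and Chrm5 fell below it in experiment 2, leaving 9. No member was called in experiment 1 at a false discovery rate (FDR) under 0.05 by edgeR or DESeq2, and over all genes 0% were called. At an unadjusted p under 0.05 in edgeR, 3 of the 7 members passed, beside 5.58% of all genes. All 3 (Chrm4, Chat and Ache) were lower, beside 2.58% of all genes lower and 3% higher. DESeq2 passed 3 members as well, beside 4.51% of all genes. Since this contrast gave rise to the set, nothing is read from that count. In experiment 2, edgeR and DESeq2 also called no member at FDR under 0.05 (0% of all genes), and none was under an unadjusted p of 0.05 with either tool, beside 1.33% of all genes with edgeR (0.624% lower and 0.705% higher) and 2.23% with DESeq2.

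**Figure D1:**
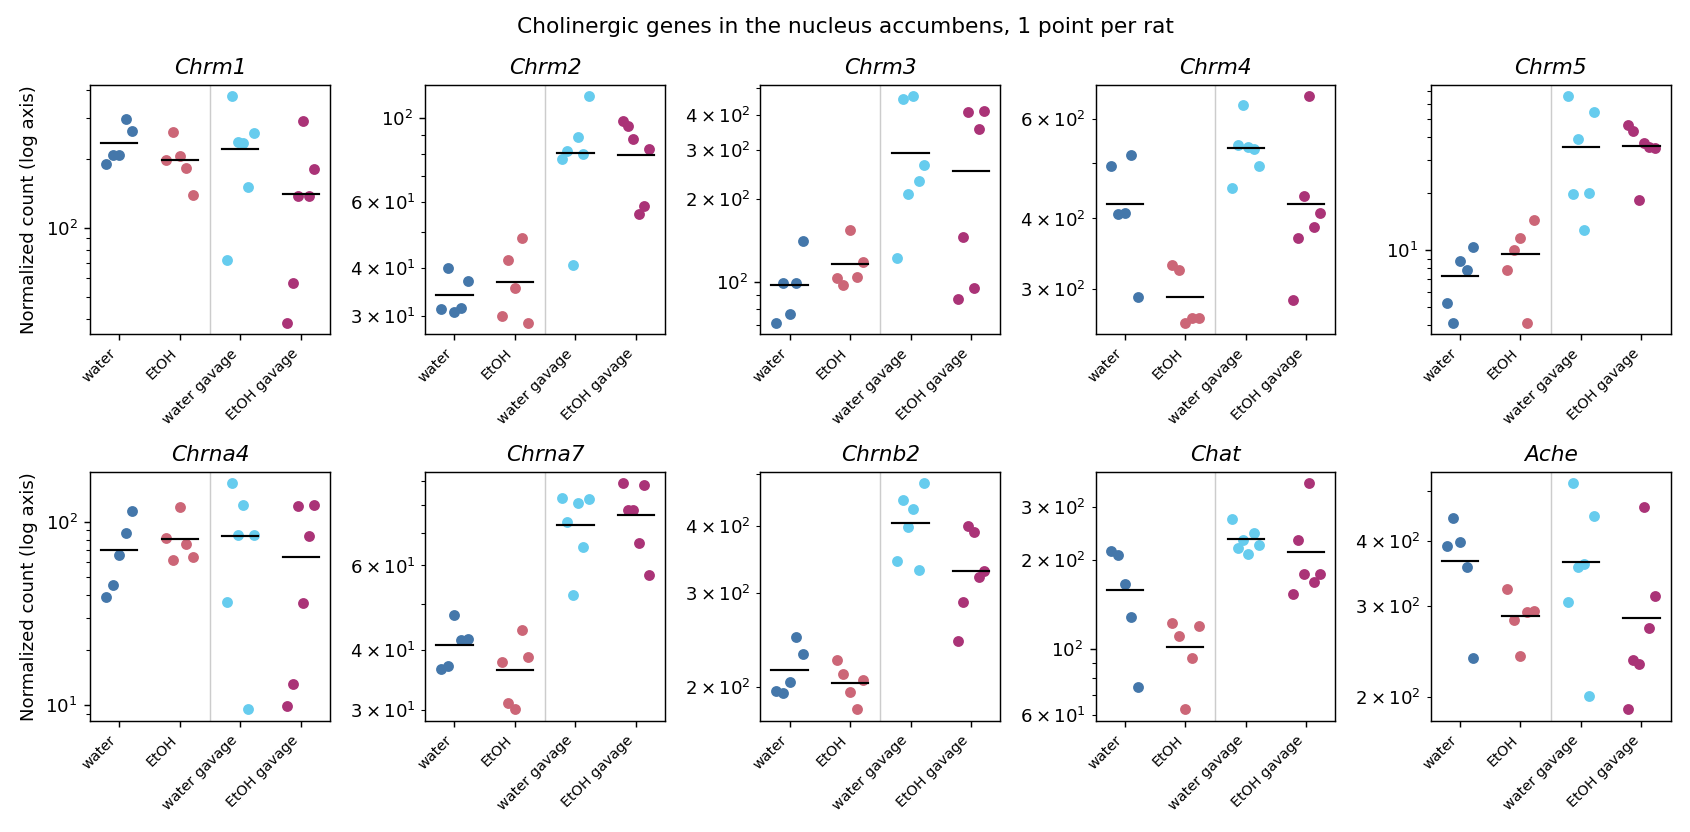
Normalized counts of the 10 genes (vertical log axes) in each rat of the 4 groups, 1 point per rat and a line at the group mean. Chrm4, Chat and Ache sit lower in most EtOH rats of experiment 1, and Chrna4 spreads over more than an order of magnitude within each group of experiment 2.

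Chrm4, the Gi-coupled receptor of projection neurons, was lower in the EtOH rats of experiment 1. The water rats 1 to 5 had normalized counts of 495, 408, 409, 518 and 291. The EtOH rats 1 to 5 had 332, 325, 262, 267 and 267. Water rat 5 lay within the EtOH range, and the other 4 water rats lay above all EtOH rats. The means were 424 ± 89.7 and 291 ± 34.6 (SD, n = 5 each), and the log2 fold change was -0.54 (SE 0.13). Normalized counts of EtOH and water rats did not overlap for 0.404% of all genes with EtOH lower and 0.439% with EtOH higher, and no member was among them.

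In experiment 2, Chrm4 was 453 at the lowest, 533 at the median and 633 at the highest in the water gavage rats. In the EtOH gavage rats the same values were 287, 397 and 657. Of the 6 EtOH gavage rats, 5 lay below every water gavage rat, and EtOH gavage rat 4 lay above all of them. Full separation of the groups, with EtOH gavage lower, was seen for 0.0116% of all genes and for no member. The log2 fold change was -0.32 (SE 0.17, 95% interval -0.70 to 0.05), which did not pass the edgeR test (FDR 0.675). An exact permutation test of log2 CPM, counts scaled to library size, gave p = 0.0649 (two-sided, where the smallest possible is 0.00216). Without the 4 libraries with the most reads outside genes, the log2 fold change was -0.20 (SE 0.16) in the other 8, and without EtOH gavage rat 4 it was -0.49.

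Chrm4 overlaps the growth factor gene Mdk in the RefSeq gene table, and the libraries of experiment 1 kept no strand. Reads from a stretch shared by both genes are therefore uncertain there. Mdk itself had mean normalized counts of 75.3 (water) and 80.3 (EtOH), for a log2 fold change of 0.09. Within the groups of experiment 1, Chrm4 followed the mean of the 6 projection neuron markers over 10 rats (Pearson's r = 0.845, permutation p = 0.00174, adjusted over 80 relations p = 0.0278). The rank correlation was rho = 0.927 (permutation p = 0.00106, adjusted p = 0.0283), and r was 0.920 without the 2 rats farthest from the median. In experiment 2 the same relation had r = 0.009 (permutation p = 0.976, adjusted p = 0.993) and rho = -0.112 (permutation p = 0.742, adjusted p = 0.836), with r = -0.037 without 2 rats and 0.559 over the 8 libraries at or below 52% of reads outside genes. With the marker mean in the fit, a step added after the data were seen, the log2 fold change of Chrm4 in experiment 1 was -0.37, and with the cortical marker mean it was also -0.37.

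The genes most like Chrm4 were those with the highest value of the lower of both experiments' Pearson's r, computed within groups over 10 and 12 rats among 8175 genes. They were Syt6 (r = 0.907 and 0.899), Kcnt1 (0.904 and 0.896), Adra2c (0.858 and 0.891), Wnt7a (0.877 and 0.855) and Ngef (0.848 and 0.865). Kcnt1 encodes a sodium-activated potassium channel, Adra2c a Gi-coupled adrenergic receptor and Syt6 a synaptotagmin. Their log2 fold changes in experiments 1 and 2 were -0.46 and -0.65 for Syt6, -0.25 and -0.41 for Kcnt1, -0.41 and -0.53 for Adra2c, -0.07 and -0.12 for Wnt7a and -0.19 and -0.52 for Ngef. The likeness is a description, since all these values come from the same libraries and share their depth and tissue makeup.

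Chrm2, the other Gi-coupled receptor, was lowly counted in experiment 1, with 34.1 ± 4.2 in water and 36.9 ± 8.2 in EtOH rats (SD, n = 5 each). In experiment 2 it was 40.8 at the lowest, 81.1 at the median and 113.9 at the highest in water gavage rats. The EtOH gavage rats had 55.8, 85.2 and 97.9, all within the water gavage range. Its difference of -0.02 on the log2 scale (SE 0.24, 95% interval -0.55 to 0.50) did not pass the edgeR test (FDR 0.968) and changed sign with other scaling (0.01 with size factors).

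Chrm1, the main Gq-coupled receptor of forebrain neurons, had 189, 209, 209, 299 and 263 in water rats 1 to 5. The EtOH rats 1 to 5 had 198, 261, 205, 183 and 138. The groups overlapped over most of their range, and the log2 fold change was -0.24 (SE 0.15). Its range was wide in experiment 2, with 71.9, 235 and 375 as the lowest, median and highest of the water gavage rats and 38.5, 138 and 292 of the EtOH gavage rats. Of the EtOH gavage rats, 5 of 6 lay below the water gavage median. For Chrm1 the log2 fold change of -0.65 (SE 0.46, 95% interval -1.64 to 0.34) did not pass the edgeR test (FDR 0.675), and the exact permutation p was 0.186.

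The share of reads outside annotated genes moved with Chrm1 in experiment 2. Over the 12 rats, within groups, r was -0.946 (permutation p = 4e-05, adjusted p = 0.0016) and rho was -0.860 (permutation p = 0.00147, adjusted p = 0.0294), with r = -0.904 without 2 rats. Over the 8 libraries at or below 52% r was -0.612. With that share in the fit the log2 fold change of Chrm1 was -0.004 (SE 0.20), and without the 4 libraries above 52% it was -0.54 (SE 0.25). The same share had r = -0.689 with Chrm4 (permutation p = 0.00935, adjusted p = 0.0464; rho = -0.755, permutation p = 0.00976, adjusted p = 0.0976). Without 2 rats that r was -0.511, over the 8 libraries it was -0.357, and with the share in the fit the log2 fold change of Chrm4 was -0.17 (SE 0.14). Chrna4 had r = -0.812 with the share (permutation p = 0.00427, adjusted p = 0.0446; rho = -0.594, permutation p = 0.0617, adjusted p = 0.224), -0.696 without 2 rats and -0.006 over the 8 libraries. Chrnb2 had r = -0.794 (permutation p = 0.00578, adjusted p = 0.0446) and rho = -0.615 (permutation p = 0.0489, adjusted p = 0.213), with r = -0.665 without 2 rats and 0.218 over the 8 libraries. For Ache r was -0.742 (permutation p = 0.00816, adjusted p = 0.0446) and rho was -0.727 (permutation p = 0.0126, adjusted p = 0.101), with r = -0.689 without 2 rats and -0.495 over the 8 libraries.

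Chrm3, a Gq-coupled receptor, was the only fitted muscarinic gene above 0 in experiment 1. Its values were 71.7, 99.7, 76.6, 99.7 and 141 in water rats 1 to 5. The EtOH rats had 104, 98.0, 154, 105 and 118, so that 4 of 5 lay above the water median. Chrm3 had a log2 fold change of 0.24 (SE 0.18). The lowest, median and highest in experiment 2 were 122, 248 and 467 in water gavage and 86.9, 252 and 413 in EtOH gavage rats. Both medians were close and both groups spread over a wide range, with a log2 fold change of -0.21 (SE 0.45, 95% interval -1.18 to 0.75, edgeR FDR 0.815).

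Chrm5, a Gq-coupled receptor known from dopamine neurons, had few reads. It had 7.3 ± 2.6 in water and 9.6 ± 3.9 in EtOH rats (SD, n = 5 each). In experiment 2 it ran from 12.7 to 65.8 in water gavage and from 18.4 to 46.2 in EtOH gavage rats. Fitted without the filter, its log2 fold change there was 0.05 (SE 0.40). Chrm5 overlaps Aven in the RefSeq gene table, and Chrm5 had no promoter entry.

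Chrnb2, the beta subunit that pairs with Chrna4, had widely overlapping groups in experiment 1. The water rats had 197, 195, 204, 248 and 230. The EtOH rats had 225, 211, 196, 182 and 206. These gave a log2 fold change of -0.08 (SE 0.09). In experiment 2 all 6 EtOH gavage rats lay below the water gavage median, and 4 of 6 below its lowest rat. The lowest, median and highest were 331, 415 and 482 in water gavage and 244, 326 and 400 in EtOH gavage rats. Its log2 fold change of -0.30 (SE 0.15, 95% interval -0.62 to 0.02) did not pass the edgeR test (FDR 0.675), and the exact permutation p was 0.0519 (two-sided). It was -0.26 (SE 0.12) without the 4 libraries and -0.15 (SE 0.11) with the share of reads outside genes in the fit.

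Chrna4, the alpha subunit of the main high-affinity nicotinic receptor, varied more between rats of a group than nearly all other genes. The water rats 1 to 5 of experiment 1 had 39.1, 45.2, 65.6, 86.6 and 115. The EtOH rats had 81.9, 62.0, 120, 75.9 and 64.2. All EtOH rats but the highest lay inside the water range, and the log2 fold change was 0.18 (SE 0.26). Its lowest, median and highest in experiment 2 were 9.51, 84.9 and 163 in water gavage and 9.90, 59.8 and 123 in EtOH gavage rats. The highest water gavage rat thus had 17.1 times the count of the lowest. Its biological coefficient of variation, the spread between rats beyond counting error, was 78.4%, at percentile 99.4 of the genes fitted, and the log2 fold change of -0.36 (SE 0.67, 95% interval -1.81 to 1.08) did not pass the edgeR test (FDR 0.787). RefSeq also places Col20a1 over part of Chrna4.

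Cortical excitatory neuron markers moved with Chrna4 and Chrm3. In experiment 1, within groups over 10 rats, Chrna4 had r = 0.942 with the mean of these markers (permutation p = 0.00044, adjusted p = 0.0088; rho = 0.915, permutation p = 0.00394, adjusted p = 0.0525). Without the 2 rats farthest from the median r was 0.901. Chrm3 had r = 0.902 (permutation p = 0.00706, adjusted p = 0.0446; rho = 0.721, permutation p = 0.0603, adjusted p = 0.224), and r = 0.843 without 2 rats. The marker sums of experiment 2 left a gap, with 5 rats at 130 to 604 and 7 rats at 1682 to 4096, so no relation over all 12 is given. Over the 7 rats above the gap, chosen after the data were seen, Chrna4 had r = 0.928 (exact permutation p = 0.0556) and rho = 0.643 (exact permutation p = 0.194). Over the same 7 rats Chrm3 had r = 0.910 (exact permutation p = 0.0486) and rho = 0.929 (exact permutation p = 0.139). The 5 rats below the gap were too few for a value. With the marker mean in the fit, the log2 fold change of Chrna4 in experiment 1 went from 0.18 to -0.13.

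**Figure D2:**
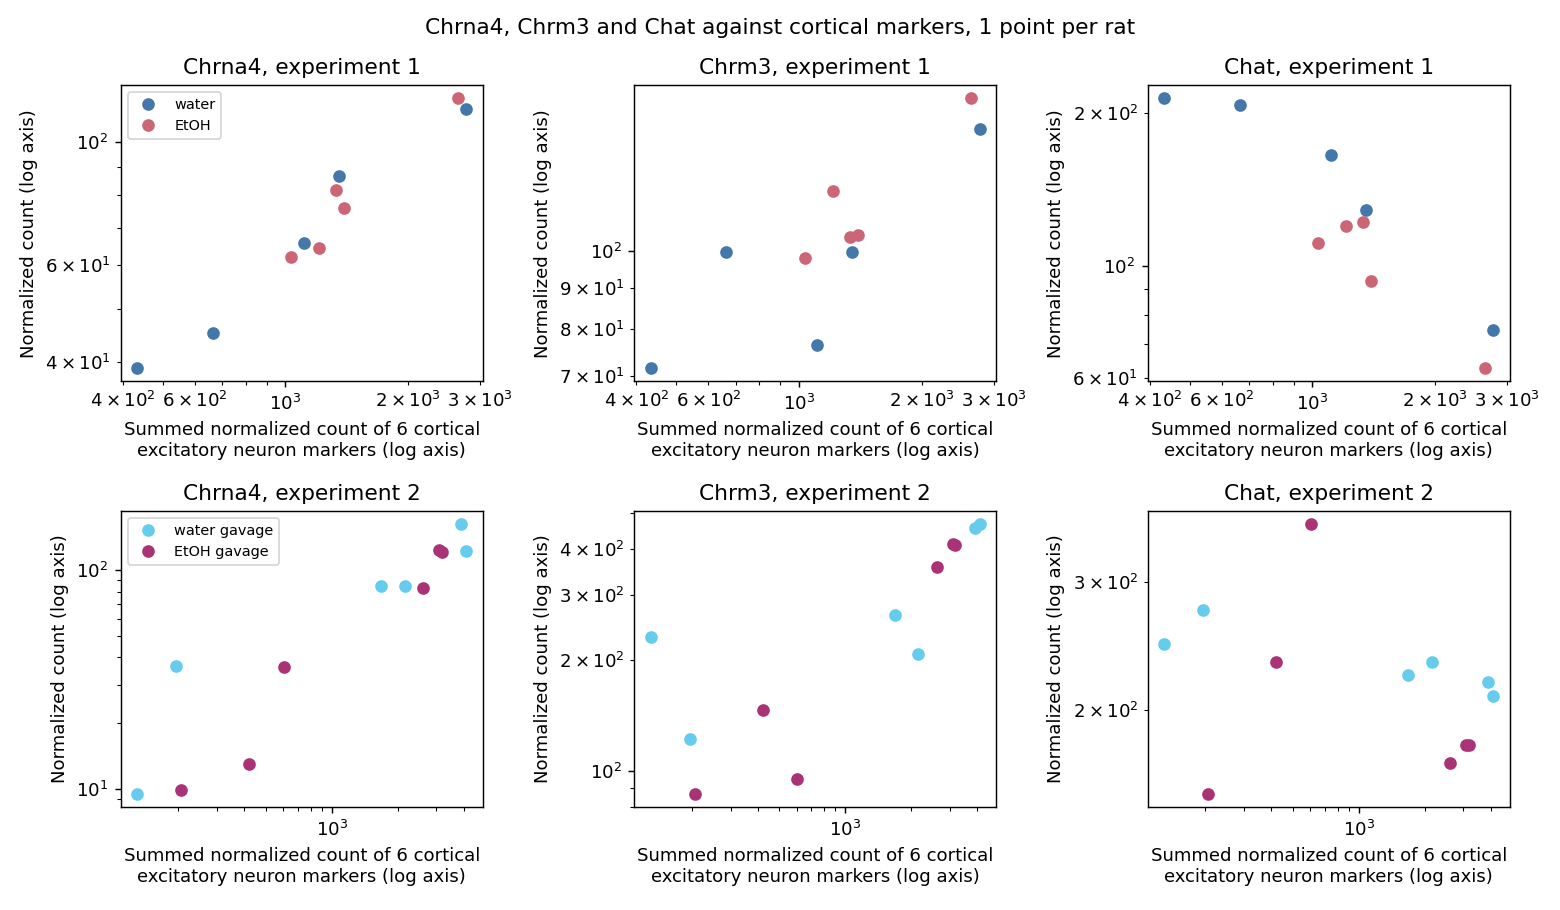
Normalized counts of Chrna4, Chrm3 and Chat (vertical log axes) against the summed normalized counts of 6 cortical excitatory neuron markers (horizontal log axes), 1 point per rat, with experiment 1 above and experiment 2 below. Chrna4 rises from 39.1 to 115 over the water rats as the marker sum goes from 434 to 2771, while Chat goes from 214 to 74.7 over the same rats.

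Chrna7, the subunit of the homomeric receptor, stayed within a narrow range. It had 41.0 ± 4.5 in water and 36.3 ± 5.8 in EtOH rats (SD, n = 5 each). Its lowest, median and highest in experiment 2 were 52.1, 77.4 and 83.0 in water gavage and 57.3, 78.3 and 89.1 in EtOH gavage rats. It was the only fitted member above 0 there, with a log2 fold change of 0.06 (SE 0.18, 95% interval -0.33 to 0.46, edgeR FDR 0.865), and it was just below 0 (-0.01) with the share of reads outside genes in the fit.

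Chat, which makes acetylcholine and marks cholinergic neurons, was lower in most EtOH rats of experiment 1. The water rats 1 to 5 had 214, 208, 166, 129 and 74.7. The EtOH rats had 122, 111, 62.9, 93.4 and 120. All 5 EtOH rats lay below the water median, but water rat 5 lay among them. Chat had a log2 fold change of -0.63 (SE 0.25), -0.83 without water rat 5 and -0.49 without EtOH rat 3. Its lowest, median and highest in experiment 2 were 209, 228 and 274 in water gavage and 153, 179 and 361 in EtOH gavage rats. Of the EtOH gavage rats 4 of 6 lay below every water gavage rat and EtOH gavage rat 4 was above them all. That difference, -0.14 on the log2 scale (SE 0.20, 95% interval -0.58 to 0.29), did not pass the edgeR test (FDR 0.731), and it was 0.03 (SE 0.23) without the 4 libraries.

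Chat shares its locus with Slc18a3, the vesicular acetylcholine transporter, which lies inside it. Slc18a3 was below the filter in both experiments. Its counts of 63.8, 68.9, 62.0, 43.3 and 28.9 in water rats 1 to 5 took nearly the same order as those of Chat, with 2 rats exchanged at the top. The means were 53.4 ± 16.8 in water and 33.8 ± 4.2 in EtOH rats (SD, n = 5 each). In experiment 2 they were 29.2 ± 8.4 in water gavage and 19.0 ± 12.4 in EtOH gavage rats (SD, n = 6 each). Slc5a7, the choline transporter, had 724, 654, 665, 343 and 219 in water rats and 493, 398, 262, 455 and 428 in EtOH rats, with a log2 fold change of -0.36 (SE 0.26) in experiment 1 and 0.29 (SE 0.34, edgeR FDR 0.693) in experiment 2.

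Most other listed markers of cholinergic interneurons were also lower on average in the EtOH rats of experiment 1. The list has 8 genes, of which 6 were fitted and 5 had a log2 fold change below 0, with a median of -0.49, against a median of -0.001 over all genes. Its summed level ran from 523 to 1376 in water and from 549 to 891 in EtOH rats. Lhx8, a transcription factor of these neurons and the lowest fitted marker of the list, had 63.2 ± 31.7 in water and 38.1 ± 11.9 in EtOH rats (SD, n = 5 each). Zic4, the fitted marker above 0, had 43.0 ± 13.9 and 54.4 ± 21.5 (SD, n = 5 each), a log2 fold change of 0.28 (SE 0.29). Within groups, Chat had r = 0.874 with the mean of the other 7 markers (permutation p = 0.00836, adjusted p = 0.0446; rho = 0.685, permutation p = 0.106, adjusted p = 0.282) and r = 0.885 without 2 rats. In experiment 2 r was 0.801 (permutation p = 0.00764, adjusted p = 0.0446; rho = 0.636, permutation p = 0.0426, adjusted p = 0.213) and 0.551 without 2 rats. There 5 of the 8 markers were fitted, 3 of them below 0, with a median of -0.14, and the summed level ran from 1220 to 2520 in water gavage and from 1122 to 2535 in EtOH gavage rats.

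Cortical markers also moved with Chat in experiment 1, in the opposite direction. Within groups r was -0.956 (permutation p = 0.00033, adjusted p = 0.0088) and rho was -0.964 (permutation p = 0.00065, adjusted p = 0.0260), with r = -0.964 without 2 rats. With the cortical marker mean in the fit, the log2 fold changes of Chat and Ache were -0.18 and -0.14. Over the 7 rats above the gap of experiment 2, Chat had r = -0.411 (exact permutation p = 0.486) and rho = -0.464 (exact permutation p = 0.472). Over the 8 libraries at or below 52% of reads outside genes r was -0.931. These were the same 7 rats and EtOH gavage rat 4, which lay below the gap with a marker sum of 604 and a Chat count of 361. The part of tissue makeup in the lower Chat and Ache of experiment 1 was not tested.

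The genes most like Chat by the same measure were Slc10a4 (r = 0.940 and 0.884), a vesicular transporter-like protein known from cholinergic neurons, Ecel1 (0.860 and 0.806), Sertad4 (0.759 and 0.728), Abat (0.831 and 0.714) and Prima1 (0.930 and 0.709). Prima1 encodes the membrane anchor of Ache. It had 239 ± 79.7 in water and 186 ± 38.8 in EtOH rats (SD, n = 5 each), a log2 fold change of -0.36 (SE 0.21), and in experiment 2 its log2 fold change was -0.03 (SE 0.17, edgeR FDR 0.931).

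Ache, the enzyme that ends the cholinergic signal, was lower in most EtOH rats of experiment 1. The water rats 1 to 5 had 392, 444, 398, 357 and 238. The EtOH rats had 324, 282, 240, 291 and 293. All EtOH rats lay below the first 4 water rats and above water rat 5. Ache overlaps Ufsp1 and a noncoding gene in the RefSeq gene table, so reads from a shared stretch are uncertain in experiment 1. Its log2 fold change was -0.35 (SE 0.14), -0.48 without water rat 5 and -0.27 without water rat 2. In experiment 2 its lowest, median and highest were 201, 359 and 518 in water gavage and 189, 253 and 466 in EtOH gavage rats. Of the 6 EtOH gavage rats 5 lay below the water gavage median, and the log2 fold change of -0.36 (SE 0.25, 95% interval -0.89 to 0.18) did not pass the edgeR test (FDR 0.675). It was -0.37 (SE 0.21) without the 4 libraries and -0.07 (SE 0.18) with the share of reads outside genes in the fit. Bche, the related butyrylcholinesterase, was below the filter, with 22.5 ± 9.2 in water and 16.0 ± 6.0 in EtOH rats (SD, n = 5 each).

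**Figure D3:**
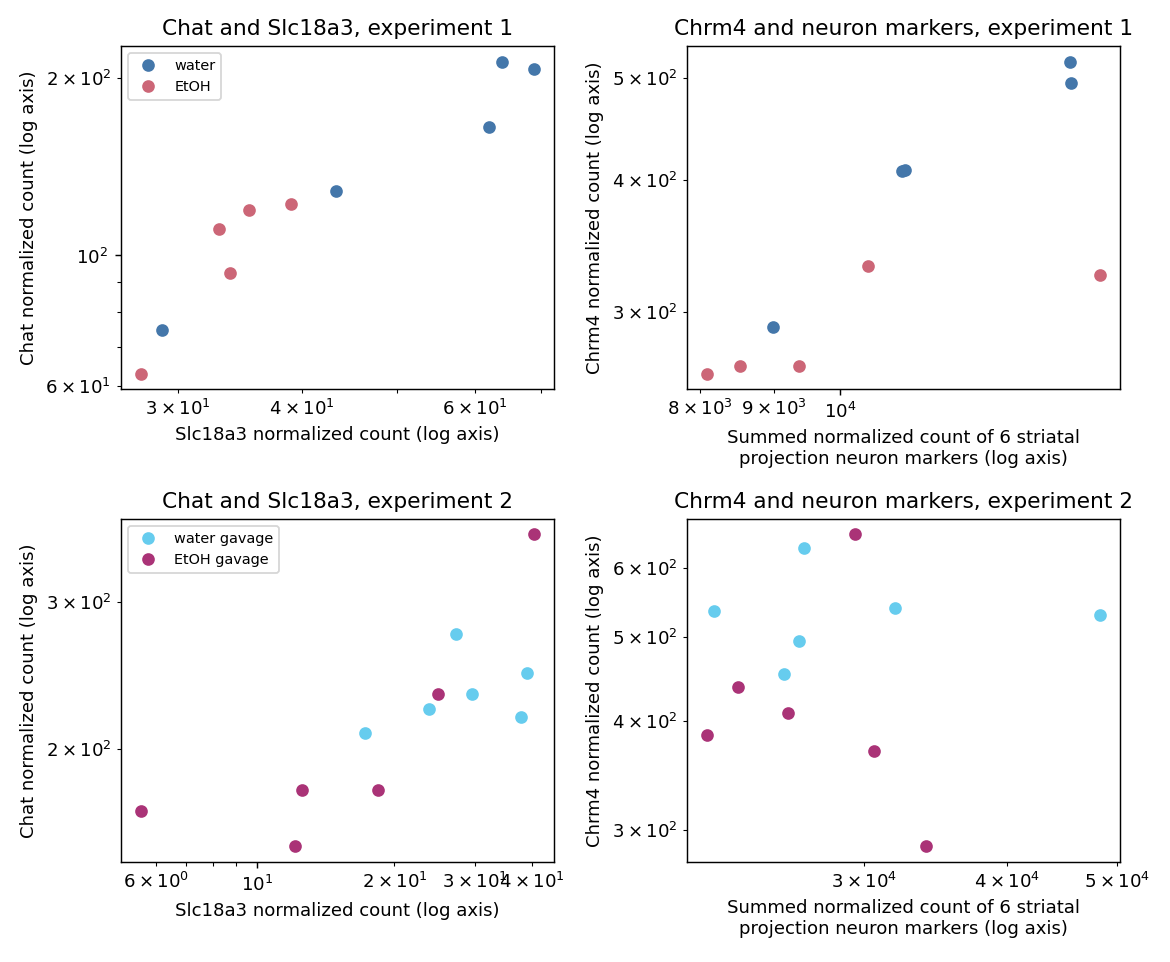
Left, normalized counts of Chat against those of Slc18a3. Right, Chrm4 against the summed normalized counts of 6 striatal projection neuron markers, with experiment 1 above, experiment 2 below, 1 point per rat and log axes throughout. In experiment 1 water rat 5 had 74.7 for Chat, 28.9 for Slc18a3 and 291 for Chrm4, the lowest of the water group for each.

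Water rat 5 was thus the lowest of its group for Chrm4, Chat, Ache, Slc18a3 and Slc5a7 and the highest for Chrm3 and Chrna4. Its cortical marker sum of 2771 was also the highest of the group. Without it 4 of 7 members had an unadjusted p under 0.05 in edgeR, beside 739 of 8655 genes and against 3 members with all rats, and none had an FDR under 0.05. Without water rat 2 or without EtOH rat 3, 1 of 7 members had an unadjusted p under 0.05, beside 440 and 415 of 8655 genes. In experiment 2, EtOH gavage rat 4 was the highest of its group for Chrm1, Chrm4, Chat and Ache. Without that rat 5 of 9 members (Chrm1, Chrm4, Chrnb2, Chat and Ache) had an unadjusted p under 0.05 in edgeR, beside 768 of 8655 genes, and again none an FDR under 0.05. Leaving out any other single rat of experiment 2 gave 0 or 1 member. Water rat 5 and EtOH gavage rat 4 were singled out by the values of these same genes, so nothing is read from the counts without them.

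Side by side, 5 of 7 fitted members had a log2 fold change below 0 in experiment 1, with a median of -0.24, beside 50.5% of all genes. In experiment 2, 8 of 9 members were below 0, with a median of -0.30, beside 49.9% of all genes and a median of 0.001 over them. Chrm2 changed sign under other scaling, as given above. With the share of reads outside genes in the fit, Chrm3 was 0.32 (SE 0.35), Chrna4 was 0.58 (SE 0.44) and Chrna7 was -0.01 in experiment 2, and without the 4 libraries Chat was 0.03. Chrm1, Chrm4, Chrnb2, Chat and Ache were below 0 in both experiments, while Chrm3 and Chrna4 were above 0 in experiment 1 and, with no covariate, below 0 in experiment 2. Whether the effects differed between the experiments was not tested. The members share libraries, and several moved together within groups, so these counts are not independent observations.

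**Figure D4:**
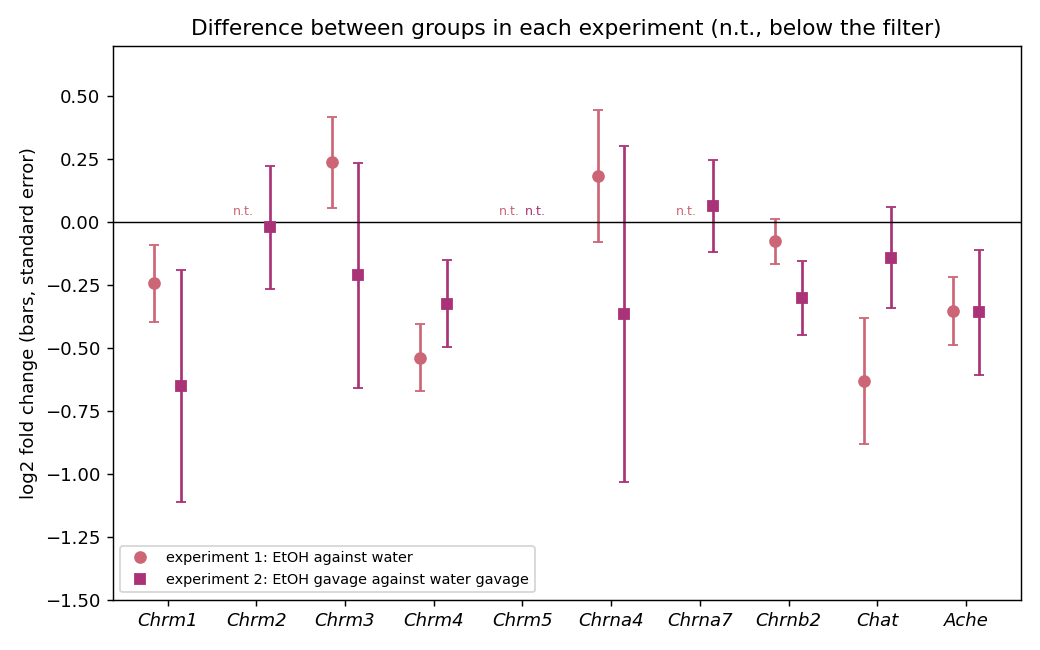
The log2 fold change of each gene (vertical axis), EtOH against water in experiment 1 (circles) and EtOH gavage against water gavage in experiment 2 (squares), with bars of 1 standard error and n.t. for genes below the filter. Chrm4 sits at -0.54 and -0.32, and the bars of Chrna4, Chrm1 and Chrm3 in experiment 2 are the widest.

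The remaining genes of cholinergic transmission showed no call. Of the 24 listed, 23 were in the files, with 7 fitted in experiment 1 and 8 in experiment 2. By edgeR none had an FDR or an unadjusted p under 0.05 in either experiment. DESeq2 gave 1 unadjusted p under 0.05 in experiment 1, beside 4.51% of all genes, and none in experiment 2, beside 2.23%. In experiment 1 the edgeR count at an unadjusted p under 0.05 was 2 of 20 without the filter, beside 820 of 14024 genes. These were Slc18a3, lower, and the sparsely counted Chrnb3, higher. Without water rat 5 the count was 4 of 8, beside 739 of 8655 genes. Neither setting gave an FDR under 0.05. The medians of their log2 fold changes were 0.05 and 0.16. Lynx1, a membrane protein that dampens nicotinic receptors, had log2 fold changes of -0.08 (SE 0.07) and -0.10 (SE 0.21). The chaperones of nicotinic receptors Ric3 and Tmem35 had 0.05 and 0.08 in experiment 1 and 0.23 and 0.16 in experiment 2. Chrna5, an accessory nicotinic subunit, ran from 13.1 to 80.7 in the water rats, the highest being water rat 5, and from 6.07 to 272 over experiment 2. Chrna6, Chrnd and Chrng were at 0 reads in every library, and the other nicotinic subunits had few reads.

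Among 18 genes of muscarinic signalling, all fitted in experiment 1 and 17 in experiment 2, none was called at FDR under 0.05. Gna11, a Gq-family protein through which Chrm1 signals, was the only one with an unadjusted p under 0.05 in edgeR. This was 1 of 18 genes in experiment 1, beside 5.58% of all genes, and 0 of 17 in experiment 2, beside 1.33%. Gna11 was lower in the EtOH rats of experiment 1. It ran from 232 to 276 in water and from 189 to 224 in EtOH rats, which did not overlap. The same held for 0.404% of all genes with EtOH lower. Gna11 had a log2 fold change of -0.24 (SE 0.08, edgeR FDR 0.823), and in experiment 2 it was -0.68 (SE 0.40, edgeR FDR 0.675). Adcy5, the main adenylyl cyclase of projection neurons and a target of Gi signalling, had -0.14 (SE 0.14) and -0.39 (SE 0.23, edgeR FDR 0.675). Gnal, the stimulatory G protein subunit of these neurons, had -0.15 (SE 0.13) and 0.03 (SE 0.17, edgeR FDR 0.934). The medians of the list were 0.001 and 0.03.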

How the data were processed

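RNA from the NAc of 22 rats was sequenced as polyA libraries, without strand in experiment 1 and with strand in experiment 2. The submitters' processing notes name bcl2fastq 1.8, TopHat2 2.0.13, HTSeq 0.5.3p3 and 0.6.0, DESeq2 1.6.2 and build Rnor_6.0. The authors deposited raw read counts per gene and 5 summary lines per library, which were kept out of library sizes and tests. The line for reads outside genes made up 46.1% to 58.0% of the reads outside and on genes. Reads aligned to several places were not counted, and the counting options are not given in the sources used here.

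Each experiment was fitted alone in edgeR 4.0.16 (R 4.3.3) with TMM, glmQLFit and glmQLFTest on genes with a mean count above the median of listed genes, and p-values were adjusted by Benjamini-Hochberg over all fitted genes (FDR). The fits were also run on simulated counts in which genes varied independently of each other. That setting leaves out the shared axis of experiment 2, so it does not show which effect sizes could have been found there. Log2 CPM used a prior count of 2. Relations used 100000 permutations within groups, centred on group means. DESeq2 1.42.0 was an alternative. Other alternatives changed scaling, filter, covariates, samples and the replicate block, and those with marker means, without 4 libraries and with the newer glmQLFit mode were chosen after seeing the data. Groups came from the sample labels, and the tests set differences between groups against the spread between rats. No pair of replicates agreed within counting noise (chi-square per degree of freedom of at least 2.99). Counting error is smallest in experiment 2, whose libraries are deeper.

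Named genes were the 10 members, listed cholinergic and signalling genes with an unadjusted p under 0.05 plus Slc18a3, Slc5a7 and Bche, the 5 genes most like Chrm4 and the 5 most like Chat, and markers by list; the other listed genes and Mdk were named after their values were seen. Members and lists were chosen with earlier results of these data known.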

Additional observations from a re-analysis of the deposited data

How the results depend on the processing

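No member, no other cholinergic gene and no gene of either experiment was called at FDR under 0.05 under any of the 20 alternatives of experiment 1 or the 23 of experiment 2. Chrm4 stayed below 0 in all of them. Leaving out 1 rat moved its log2 fold change between -0.65 and -0.46 in experiment 1 and between -0.49 and -0.23 in experiment 2, and the other settings gave -0.55 to -0.37 and -0.36 to -0.17. Only 3 of the 10 genes most like Chrm4 and Chat were kept with Spearman's rho in place of Pearson's r.

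Each value that changed sign was within 1 SE of 0 in the main analysis. Chrna4 in experiment 1 was -0.13 with the cortical markers in the fit, and -0.014 to 0.46 when 1 rat was left out. In experiment 2, Chrm2 was 0.011 with DESeq2, 0.013 with size factors, 0.011 with no filter, 0 with the replicate block, and -0.16 to 0.10 when 1 rat was left out. With the share of reads outside genes in the fit, Chrm3 was 0.32, Chrna4 was 0.58 and Chrna7 was -0.013. Chrna7 was -0.017 to 0.14 when 1 rat was left out, and Chat was 0.026 without the 4 libraries. The causes were not tested.

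Replicate numbers recur between groups, and the labels do not say that they pair the rats. Same-numbered rats correlated from -0.125 to 0.144 in experiment 1 and from -0.759 to 0.835 in experiment 2. A single axis carried most of the variance in experiment 2, so these values cannot exclude a pairing. With the number as a replicate block, Chrm4 was -0.53 and -0.36 in experiments 1 and 2, 2 members had an unadjusted p under 0.05 in experiment 2 in place of 0, beside 414 genes in place of 115, and no FDR call changed.

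Genes with an unadjusted p under 0.05 numbered 483 in experiment 1, 378 to 739 when 1 rat was left out (739 without water rat 5) and 84 to 820 otherwise. In experiment 2 they numbered 115, 30 to 776 when 1 rat was left out and 113 to 1093 otherwise. Few reads limit Chrm5, Chrm2 and Chrna7 in experiment 1.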

Other observations

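Drd1, the dopamine D1 receptor of direct pathway projection neurons, had 1439 ± 350 in water and 1015 ± 254 in EtOH rats (SD, n = 5 each), a log2 fold change of -0.50 (SE 0.17, edgeR FDR 0.830). In experiment 2 its log2 fold change was 0.06 (SE 0.18, edgeR FDR 0.870). Adora2a, the adenosine receptor of indirect pathway neurons, had -0.18 (SE 0.18) in experiment 1 and -0.54 (SE 0.24, edgeR FDR 0.675) in experiment 2. Whether these effects differed between the experiments was not tested.

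The 3 fitted neuroblast markers (Dcx, Dlx1 and Cd24) had a median log2 fold change of 0.55 in experiment 1 and 0.36 in experiment 2. The paper lists all 3 among its genes with the lowest p-values of experiment 1, so the value there is a description. Dlx2 and Sox11, below the filter and fitted without it, had 0.44 and 0.26 in experiment 1. In experiment 2 they had few reads and -1.52 and -0.13. Vascular markers had medians of 0.13 and -0.35, cortical markers 0.25 and 0.01, oligodendrocyte markers 0.03 and -0.15, astrocyte markers 0.05 and 0.03 and microglia markers -0.02 and -0.27. Direct pathway markers had medians of -0.27 and 0.09, indirect pathway markers -0.05 and -0.30, and striatal projection neuron markers -0.26 and -0.12. Ngfr, listed for basal forebrain cholinergic neurons, was below the filter, and reached 113 in water and 62.0 in EtOH rats. None of these markers had an FDR under 0.05. Of the 40 sets of member values by group, 0 held a rat that stood apart by Dixon's criterion, where about 2 would by chance.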
